A study of Arabidopsis thaliana with 20 samples.

Results

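The nuclear genes of the light-harvesting antennae and of the photosystems were described across 5 genotypes of Arabidopsis thaliana seedlings at 2 temperatures. Members were taken from a named list of nuclear LHCA, LHCB, PSA and PSB genes, 38 of the 36799 genes in the count tables. They fall into 9 genes of the major antenna of photosystem II (LHCB1 to LHCB3), 4 of its minor antenna (LHCB4 to LHCB6), 4 of the antenna of photosystem I (LHCA1 to LHCA4), 12 for photosystem I subunits, 5 for the oxygen-evolving complex and 4 for other photosystem II subunits. The study sequenced polyadenylated RNA from whole seedlings to ask how the chromatin protein LHP1, the remodeller INO80 and ethylene signalling bear on the response to warmth. The genotypes were ein2-5 (here ein2), mutant for the membrane protein that passes on the ethylene signal; ein3-1 eil1-1 (ein3 eil1), mutant for a pair of ethylene-response transcription factors; lhp1-3 (lhp1), mutant for a reader of the repressive histone mark H3K27me3; ein2-5 lhp1-3 (ein2 lhp1); and the wild type Col-0. All were 5-day-old seedlings on medium with sucrose under short days. The warmed seedlings were at 27 °C for 4 h, from ZT4 to ZT8 (hours after lights on), and the others stayed at 21 °C. Each of the 10 groups had 2 libraries. The labels do not give the collection hour of the 21 °C seedlings, and they do not say that the 2 libraries of a group came from separate cultures, so p-values measure the spread between these libraries, which may be technical.

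Light-harvesting proteins hold chlorophyll in the thylakoid membrane and pass absorbed energy to the reaction centres of photosystems I and II. LHCB1, LHCB2 and LHCB3 form the trimers of the major antenna of photosystem II, LHCB4, LHCB5 and LHCB6 are single proteins that link those trimers to the core, and the LHCA proteins form a belt on 1 side of photosystem I. The core subunits that bind the pigments of charge separation are encoded in the chloroplast genome, whereas all 38 genes here are nuclear, and their proteins are imported into the chloroplast. LHCB genes are classic light- and clock-regulated genes, and the GLK transcription factors are known activators of this set.

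The LHCB1 genes carry a contrast between near-identical copies in these data, and LHCB2.3 had the lowest value of all members in 3 of the comparisons with wild type, so the 250 bases upstream of their annotated starts are shown. LHCB1.1, LHCB1.2 and LHCB1.3 lie side by side on chromosome 1 (chr1:10474656-10475969, chr1:10472280-10473502 and chr1:10477885-10479114), LHCB1.4 lies on chromosome 2 (chr2:14524607-14525918) and LHCB2.3 on chromosome 3 (chr3:10255906-10257489). The upstream windows are chr1:10475970-10476219 on the minus strand, chr1:10473503-10473752 on the minus strand, chr1:10477635-10477884 on the plus strand, chr2:14524357-14524606 on the plus strand and chr3:10255656-10255905 on the plus strand, read 5′ to 3′ from RefSeq assembly TAIR10.1. Capitals mark matches on either strand to the G-box CACGTG, the I-box GATAAG, the CCA1-binding site AAAAATCT, the evening element AAATATCT and the sequence CCAATC.
LHCB1.1: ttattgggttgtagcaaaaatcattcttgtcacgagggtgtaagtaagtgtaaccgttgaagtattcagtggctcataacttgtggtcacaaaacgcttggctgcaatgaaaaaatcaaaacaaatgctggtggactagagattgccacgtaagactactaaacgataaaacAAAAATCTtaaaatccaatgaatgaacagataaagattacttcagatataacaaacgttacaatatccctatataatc
LHCB1.2: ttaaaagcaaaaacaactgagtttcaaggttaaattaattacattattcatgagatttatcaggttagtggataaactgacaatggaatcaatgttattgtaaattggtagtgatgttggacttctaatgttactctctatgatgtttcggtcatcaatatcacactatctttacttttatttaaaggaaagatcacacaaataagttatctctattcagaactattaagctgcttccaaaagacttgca
LHCB1.3: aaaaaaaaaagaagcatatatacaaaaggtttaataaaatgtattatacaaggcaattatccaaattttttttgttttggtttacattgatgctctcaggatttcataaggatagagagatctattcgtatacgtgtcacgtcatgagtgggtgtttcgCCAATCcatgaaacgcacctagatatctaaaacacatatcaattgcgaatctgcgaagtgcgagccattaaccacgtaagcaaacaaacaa
LHCB1.4: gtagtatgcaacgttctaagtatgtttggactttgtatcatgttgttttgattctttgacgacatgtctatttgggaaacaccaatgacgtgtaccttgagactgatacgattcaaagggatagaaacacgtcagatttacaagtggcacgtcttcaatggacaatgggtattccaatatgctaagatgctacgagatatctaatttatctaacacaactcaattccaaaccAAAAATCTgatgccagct
LHCB2.3: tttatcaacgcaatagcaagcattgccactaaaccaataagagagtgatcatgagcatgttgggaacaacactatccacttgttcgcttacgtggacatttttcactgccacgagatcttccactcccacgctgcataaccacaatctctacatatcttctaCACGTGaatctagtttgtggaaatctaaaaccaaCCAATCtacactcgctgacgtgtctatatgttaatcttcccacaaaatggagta

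The windows of LHCB1.1 and LHCB1.4 hold the CCA1-binding site, that of LHCB1.3 holds CCAATC, that of LHCB2.3 holds a G-box and CCAATC, and that of LHCB1.2 holds none of the 5 motifs. Among the 38 members, 8 windows (21.1%) hold the G-box, against 6.47% of 27278 promoters of the same length. The I-box is in 9 (23.7%, against 12.3% of all), the CCA1-binding site in 5 (13.2%, against 6.69%), CCAATC in 11 (28.9%, against 10.2%) and the evening element in 0 (against 4.77%). These are matches to letters, with no measurement of binding.

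The copies limit what the counts can resolve. The deposited counts leave out reads that map to several places and reads over overlapping genes, so near-identical copies lose reads. The coding sequences of LHCB1.1 and LHCB1.3 are 96.14% identical and those of LHCB2.1 and LHCB2.2 are 96.62% identical. Of the 50-base stretches of LHCB1.1, 20.5% also occur in another copy, as do 10.6% in LHCB1.2, 17% in LHCB1.3, 13.7% in LHCB1.4, 23.5% in LHCB2.1 and 29.5% in LHCB2.2. In all, 16 members overlap another annotated gene on at least 1 base. LHCB1.5 (AT2G34420) is listed at 0 in all 20 libraries, and 0 of its 1045 exon bases are free of another annotated gene, so its expression was not measurable here. The other 37 members passed the filter on low counts, the least abundant library value among them being 9411 counts for PSAG, and the tests below cover these 37 of 21987 genes tested.

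The libraries held 24153109 to 47566071 counts. Transcripts of the targeted genes were lower in the mutants than in wild type. EIN2 had 25.96 and 23.4 CPM (counts scaled to library size with TMM factors) in ein2 and 25.4 and 22.8 in ein2 lhp1, against 66.1 and 70.95 in wild type at 21 °C. LHP1 had 8.09 and 6.71 CPM in lhp1 and 8.13 and 7.67 in ein2 lhp1, against 14.99 and 14.2 in wild type at 27 °C, and 9.53 and 9.33 CPM in lhp1 and 5.43 and 7.43 in ein2 lhp1, against 12.1 and 11.03 in wild type at 21 °C. The lhp1 libraries at 21 °C lay within the range of ein2 (11.0 and 9.04 CPM), so this level does not set lhp1 apart from ein2. EIN3 had 24.5 and 22.6 CPM in ein3 eil1, against 81.4 and 82.1 in wild type at 21 °C, and EIL1 had 22.3 and 24.2 CPM against 55.2 and 54.99. EIL1 was also below wild type in ein2 at 21 °C (35.99 and 33.85 CPM). The green leaf markers RBCS1A, RCA and CA1 were at high levels in all libraries (summed 22935 to 39934 CPM). The 10 seed storage and oil body genes summed to 62.1 and 59.7 CPM in ein3 eil1, 395 and 394 CPM in lhp1, 351 and 360.4 CPM in ein2 and 333 and 345 CPM in ein2 lhp1, against 4.88 and 5.98 in wild type at 21 °C. At 27 °C they summed to 54.7 and 52.8 CPM in ein3 eil1, 35.3 and 37.97 CPM in lhp1, 231 and 244 CPM in ein2 and 526 and 509.7 CPM in ein2 lhp1, against 5.97 and 4.63 in wild type, with 0 to 2 of the 10 genes at 0 in a group. Every mutant thus carried more seed transcripts than wild type at both temperatures, and their part in the differences below was not tested. The 12 root markers summed to 159 and 152 CPM in ein3 eil1, 245 and 256 CPM in lhp1, 192 and 181 CPM in ein2 and 267 and 257 CPM in ein2 lhp1, against 285 and 292 in wild type at 27 °C, and to 199.7 and 197 CPM in ein3 eil1, 267 and 257 CPM in lhp1, 208 and 228 CPM in ein2 and 231 and 231 CPM in ein2 lhp1, against 251 and 245 in wild type at 21 °C. Of these 12 genes, 11 passed the filter on low counts, and the part of root and green markers in the differences below was not tested either.

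Together the members took between 8.45% and 16.8% of all counts in a library. At 27 °C their share was 16.8 and 16.8% in ein3 eil1, 9.82 and 9.66% in lhp1, 11.3 and 11.5% in ein2 and 14.3 and 13.9% in ein2 lhp1, and 12.3 and 12.4% in wild type. At 21 °C it was 15.1 and 14.7% in ein3 eil1, 8.59 and 8.45% in lhp1, 10.1 and 10.1% in ein2 and 13.2 and 12.7% in ein2 lhp1, and 11.6 and 11.4% in wild type. The order of genotypes was the same at both temperatures, with ein3 eil1 highest, then ein2 lhp1, wild type, ein2 and lhp1, and the libraries of neighbouring genotypes did not overlap, but with TMM scaling the summed level of ein2 lhp1 (167175 and 161332 CPM) lay above that of ein3 eil1 at 27 °C. In every genotype both libraries at 27 °C lay above both at 21 °C in this share, but with TMM scaling the summed level fell to 158899 and 159506 CPM at 27 °C, against 168909 and 165384 at 21 °C, in ein3 eil1, and to 111070.0 and 110348 CPM, against 115764 and 114846, in wild type. Per kilobase of exon that reads could be assigned to, LHCB1.3 had the highest level in wild type at 21 °C, 19145 CPM per kb, followed by LHCB1.1 (5221), LHCB3 (4369), LHCB1.2 (4242), PSBR (3918) and LHCA1 (3906). PSAD2 (899.8), PSAH1 (856), PSBO2 (790.1) and PSBQ2 (784) had the lowest levels, and each of these genes is 1 of a pair.

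**Figure D1:**
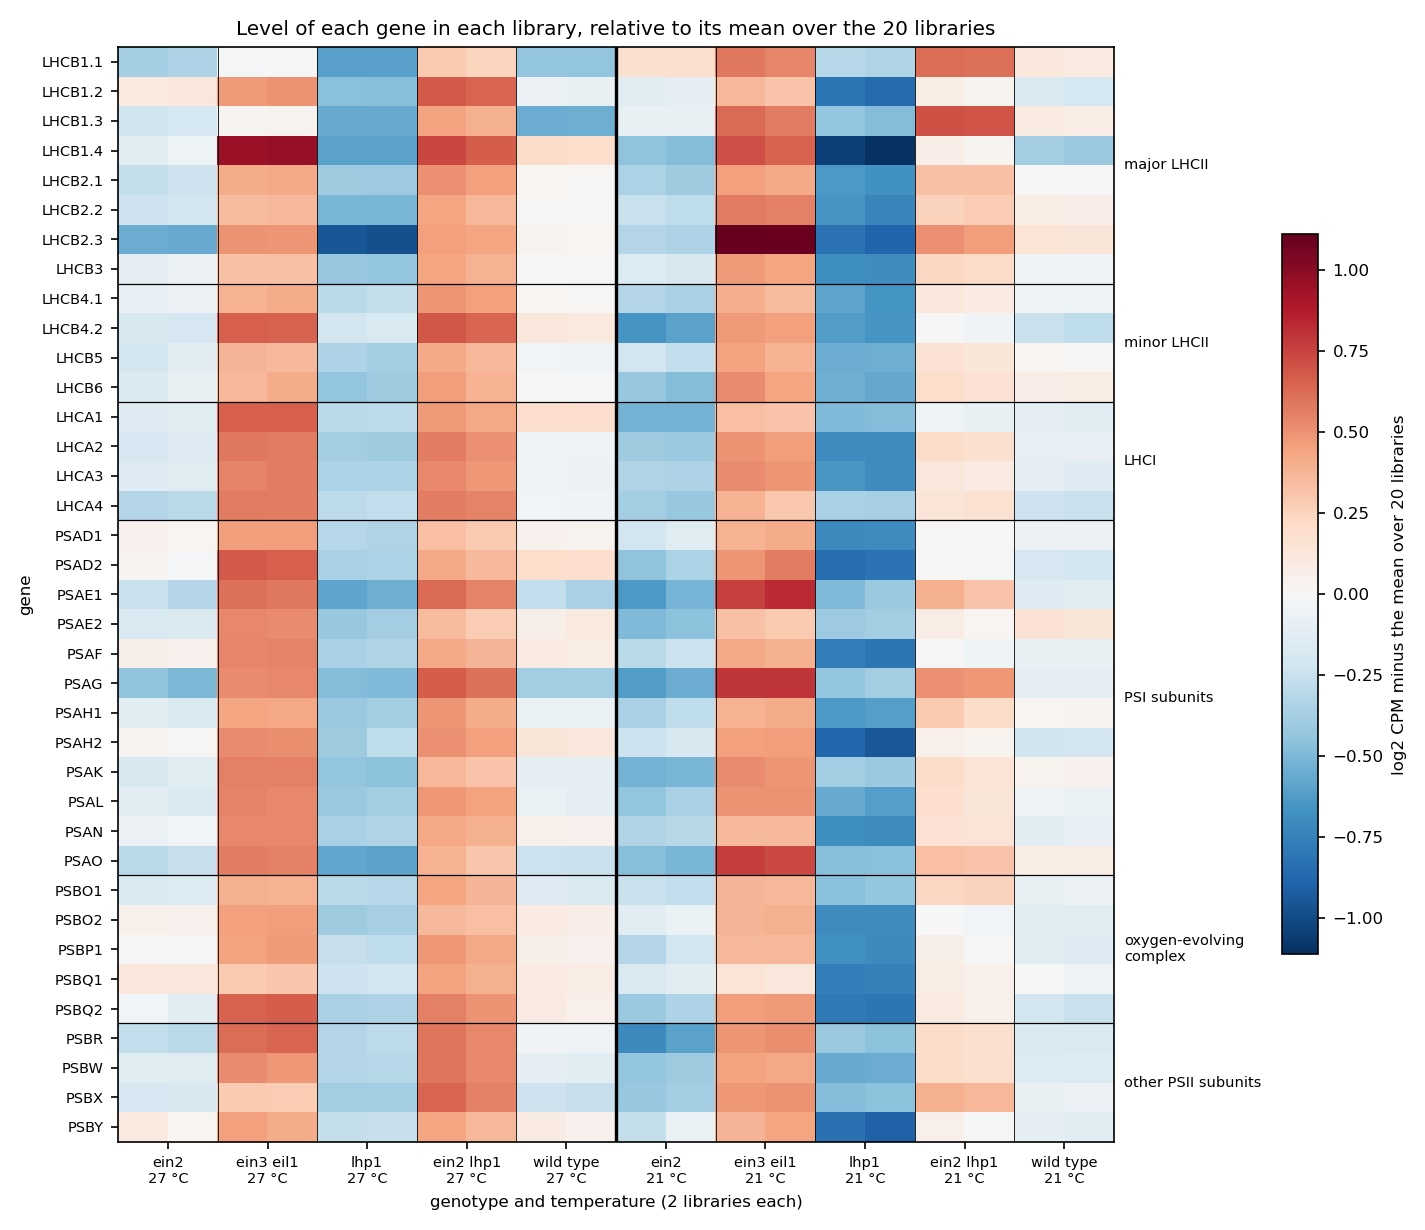
Level of each of the 37 measured genes (rows, grouped by role) in each of the 20 libraries (columns, the 5 genotypes at 27 °C on the left and at 21 °C on the right), as log2 CPM minus the gene's mean over the 20 libraries. Rows of all roles are high in ein3 eil1 and ein2 lhp1 and low in lhp1. LHCB1.1, LHCB1.3 and LHCB2.3 are lower at 27 °C in every genotype, though LHCB2.3 did not pass the test in ein2 lhp1.

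In ein3 eil1 all 37 tested members were higher than in wild type at both temperatures, across every role. The median log2 difference was 0.48 at 27 °C and 0.52 at 21 °C, where the median of all genes tested was near 0. Scaled to library totals 35 were called higher and 0 lower at 21 °C, where 1834 of all 21987 genes were called higher. With TMM scaling genes called higher made up 17.4% of all genes at 27 °C and 15.2% at 21 °C (edgeR quasi-likelihood test, adjusted p under 0.05). At 27 °C the role medians ran between 0.40 for the minor antenna and 0.61 for the antenna of photosystem I. The lowest value at 27 °C was that of PSBQ1, an extrinsic subunit of the oxygen-evolving complex, and the highest that of PSAG, which sits at the edge of photosystem I near its antenna. Of the 11 root markers tested in ein3 eil1, 0 higher and 10 lower (median -0.72) passed at 27 °C and 1 higher and 7 lower (median -0.55) at 21 °C. Of the 3 green leaf markers, 1 higher and 1 lower (median 0.02) passed at 27 °C and 3 higher and 0 lower (median 0.25) at 21 °C.

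At 27 °C PSAG (AT1G55670) had 334 and 322 CPM in ein2, 656 and 657 in ein3 eil1, 325 and 323 in lhp1, 725 and 695 in ein2 lhp1, and 348 and 348 in wild type. At 21 °C PSAG had 296 and 311 CPM in ein2, 787 and 789 in ein3 eil1, 335 and 348 in lhp1, 648 and 634 in ein2 lhp1, and 422 and 423 in wild type. The ein3 eil1 and ein2 lhp1 libraries were the highest at both temperatures and did not overlap with any other genotype. In ein3 eil1 against wild type PSAG was higher at 27 °C (log2 difference 0.92, SE 0.030, edgeR adjusted p = 3.4e-39). At 27 °C LHCB1.4 (AT2G34430) had 3389 and 3531 CPM in ein2, 7141 and 7202 in ein3 eil1, 2429 and 2429 in lhp1, 6149 and 5864 in ein2 lhp1, and 4226 and 4203 in wild type. At 21 °C LHCB1.4 had 2690.4 and 2637 CPM in ein2, 6053 and 5786 in ein3 eil1, 1790.5 and 1719 in lhp1, 3873 and 3763 in ein2 lhp1, and 2819.5 and 2759.8 in wild type. For LHCB1.4 ein3 eil1 was highest and ein2 lhp1 next at both temperatures, with lhp1 lowest. LHCB1.4 had the highest difference among members in ein3 eil1 at 21 °C (log2 difference 1.09, SE 0.022, edgeR adjusted p = 2.4e-52).

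In lhp1 the members moved the opposite way. At 27 °C 36 of 37 were lower than in wild type and none was higher (median -0.34), against 12.5% of all genes called lower. At 21 °C all 37 were lower (median -0.57), against 15.7%. The member that passed in neither direction at 27 °C was LHCB1.3 (log2 difference -0.01, SE 0.015, edgeR adjusted p = 0.524). Role medians at 21 °C ran between -0.65 for the major antenna and -0.40 for the small photosystem II subunits PSBR, PSBW, PSBX and PSBY. LHCB2.3 was the lowest member at both temperatures, and LHCA4, the partner of LHCA1 in the antenna of photosystem I, was the least lowered at 21 °C (log2 difference -0.13, SE 0.020, edgeR adjusted p = 2.4e-07). In whole seedlings fewer green cells and less RNA per cell cannot be told apart. Of the 3 green leaf markers in lhp1, 1 higher and 2 lower (median -0.38) passed at 27 °C and 0 higher and 3 lower (median -0.51) at 21 °C. Of the 11 root markers, 0 higher and 6 lower (median -0.43) passed at 27 °C and 3 higher and 3 lower (median -0.06) at 21 °C. Of the 10 seed genes, 8 higher and 0 lower (median 3.42) passed at 27 °C and 10 higher and 0 lower (median 7.10) at 21 °C.

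At 27 °C LHCB2.3 (AT3G27690) had 609.8 and 607 CPM in ein2, 1269 and 1262 in ein3 eil1, 463 and 456 in lhp1, 1227 and 1210.2 in ein2 lhp1, and 921 and 910.5 in wild type. At 21 °C LHCB2.3 had 716 and 704 CPM in ein2, 1935 and 1916 in ein3 eil1, 507 and 487 in lhp1, 1272 and 1237 in ein2 lhp1, and 994 and 982 in wild type. LHCB2 proteins are among the antenna proteins phosphorylated when antenna is moved between the photosystems. At both temperatures lhp1 libraries were lowest and ein2 libraries next. Relative to wild type in lhp1 LHCB2.3 was lower at 27 °C (log2 difference -0.99, SE 0.026, edgeR adjusted p = 3.6e-45) and at 21 °C (log2 difference -0.99, SE 0.026, edgeR adjusted p = 1.7e-45). At 27 °C LHCA4 (AT3G47470) had 3803 and 3870.4 CPM in ein2, 7080.5 and 7073 in ein3 eil1, 3895 and 3929 in lhp1, 7074 and 6969 in ein2 lhp1, and 4673 and 4640.4 in wild type. At 21 °C LHCA4 had 3653 and 3552 CPM in ein2, 6234 and 5845 in ein3 eil1, 3705 and 3682 in lhp1, 5244 and 5337 in ein2 lhp1, and 4066 and 3997 in wild type. For LHCA4 the ein2 libraries were the lowest at both temperatures and the lhp1 libraries lay just above them.

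In ein2 the members were mostly lower than in wild type at both temperatures. At 27 °C 4 higher and 22 lower passed the test and 11 did not (median -0.08), where 38.1% of all genes were called. With length and GC trends of the libraries removed the split at 27 °C was 1 higher and 35 lower. Among all 21987 genes 7701 were called then, 4032 of them higher. At 21 °C 2 higher and 32 lower passed and 3 did not (median -0.26), where 35.9% of all genes were called. The 4 higher members at 27 °C were LHCB1.1, LHCB1.2, LHCB1.3 and PSBX, and the 2 at 21 °C were LHCB1.1 and LHCB1.2. All 4 minor antenna genes and all 4 LHCA genes were lower at both temperatures. Of the 3 green leaf markers in ein2, 1 higher and 2 lower (median -0.19) passed at 27 °C and 0 higher and 2 lower (median -0.14) at 21 °C, and of the 11 root markers 0 higher and 10 lower (median -0.49) at 27 °C and 0 higher and 4 lower (median -0.25) at 21 °C.

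At 27 °C PSAE2 (AT2G20260) had 487 and 487 CPM in ein2, 793 and 787 in ein3 eil1, 408 and 417 in lhp1, 696 and 663 in ein2 lhp1, and 569.7 and 588 in wild type. At 21 °C PSAE2 had 388 and 399 CPM in ein2, 684 and 669 in ein3 eil1, 413 and 417 in lhp1, 579.9 and 553 in ein2 lhp1, and 609.6 and 599 in wild type. PSAE proteins help dock ferredoxin on the stromal side of photosystem I. For PSAE2 the ein2 and lhp1 libraries lay below wild type at both temperatures. PSAE2 had the lowest value of all members in ein2 at 21 °C (log2 difference -0.62, SE 0.030, edgeR adjusted p = 2.2e-29). At 27 °C LHCB1.1 (AT1G29920) had 4875 and 5000.0 CPM in ein2, 6297 and 6352 in ein3 eil1, 4178 and 4194 in lhp1, 7767 and 7536 in ein2 lhp1, and 4678 and 4698 in wild type. At 21 °C LHCB1.1 had 7179 and 7184 CPM in ein2, 9506 and 9235 in ein3 eil1, 5112 and 5049.7 in lhp1, 9759.9 and 9685 in ein2 lhp1, and 6903 and 6817 in wild type. For LHCB1.1 both ein2 libraries lay above wild type at each temperature. LHCB1.1 was the member with the highest value in ein2 at 21 °C (log2 difference 0.07, SE 0.018, edgeR adjusted p = 0.0016), and this turned to -0.0042 when GC trends were removed. At 27 °C the lowest member in ein2 was LHCB2.3 (log2 difference -0.59, SE 0.025, edgeR adjusted p = 4.7e-32) and the highest LHCB1.3 (log2 difference 0.34, SE 0.015, edgeR adjusted p = 2.4e-31).

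In ein2 lhp1 the members were higher than in wild type, although each single mutant had most of them lower. At 27 °C all 37 were higher (median 0.46), against 24.0% of all genes. At 21 °C 36 were higher and PSAE2 was lower (median 0.24), where 33.8% of all genes were called. Scaled to library totals alone, which moved the median of all genes by -0.37 at 27 °C and -0.16 at 21 °C, the split was 23 higher and 6 lower at 27 °C and 22 higher and 4 lower at 21 °C. Under library totals 2054 of all 21987 genes were called higher (13611 called) at 27 °C and 2080 (8985 called) at 21 °C. With length and GC trends removed the members' split was 29 higher and 4 lower at 27 °C. Of all genes 9042 were called then, 4742 of them higher. PSAG was the highest member at 27 °C (log2 difference 1.03, SE 0.030, edgeR adjusted p = 1.7e-42). PSAD2 was the least raised at 27 °C (log2 difference 0.20, SE 0.027, edgeR adjusted p = 5.2e-09) and lower under library totals and with the length trend removed. At 21 °C LHCB1.3 was the highest (log2 difference 0.61, SE 0.015, edgeR adjusted p = 1.4e-47) and PSAE2 the lowest (log2 difference -0.09, SE 0.029, edgeR adjusted p = 0.00947). In ein2 lhp1 the green leaf markers had 2 higher and 1 lower (median 0.19) at 27 °C and 2 higher and 1 lower (median 0.07) at 21 °C, and the root markers 0 higher and 5 lower (median -0.19) at 27 °C and 1 higher and 4 lower (median -0.19) at 21 °C. The comparisons of the 4 mutants share the wild-type libraries.

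At 27 °C LHCB1.3 (AT1G29930) had 17277 and 17615 CPM in ein2, 20542 and 20705 in ein3 eil1, 13689 and 13672 in lhp1, 27474 and 26538 in ein2 lhp1, and 13801 and 13841 in wild type. At 21 °C LHCB1.3 had 19041 and 19051 CPM in ein2, 31255 and 30176 in ein3 eil1, 14956 and 14481 in lhp1, 32927 and 32826 in ein2 lhp1, and 21614 and 21348 in wild type. LHCB1.3 was the member with the most counts in every group, and its ein2 lhp1 libraries were the highest at both temperatures. At 27 °C lhp1 and wild type lay side by side, whereas at 21 °C lhp1 lay well under all other genotypes.

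The distance of ein2 lhp1 from the sum of the 2 single-mutant differences was tested directly, a comparison added after the values were seen. It takes the log2 difference of ein2 lhp1 from wild type and subtracts those of ein2 and lhp1. All 37 members lay above the sum at 27 °C (median 0.93), against 13.0% of all genes, and all 37 at 21 °C (median 1.03), against 14.2%. The median of all genes was near 0 in both. At 27 °C values ran from 0.61 for PSBQ1 to 2.00 for LHCB2.3 (SE 0.036, edgeR adjusted p = 1e-54). At 21 °C they ran from 0.65 for PSBO2 to 1.81 for LHCB2.3 (SE 0.036, edgeR adjusted p = 1.9e-52). Role medians at 21 °C ran between 0.88 for the oxygen-evolving complex and 1.25 for the major antenna. LHCB2.3 shows the pattern in plain counts: at 21 °C it had 1272 and 1237 CPM in ein2 lhp1, 716 and 704 in ein2, 507 and 487 in lhp1, and 994 and 982 in wild type. The direction held under every alternative run, including library totals, which moved the median of all genes by -0.27 at 27 °C and -0.28 at 21 °C. Cell type markers also lay off the sum. The 3 green leaf markers had 3 higher and 0 lower (median 0.76) at 27 °C and 3 higher and 0 lower (median 0.99) at 21 °C, the 11 root markers 8 higher and 0 lower (median 0.74) at 27 °C and 4 higher and 2 lower (median 0.03) at 21 °C, and the 10 seed genes 0 higher and 5 lower (median -1.58) at 27 °C and 0 higher and 8 lower (median -6.04) at 21 °C.

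**Figure D2:**
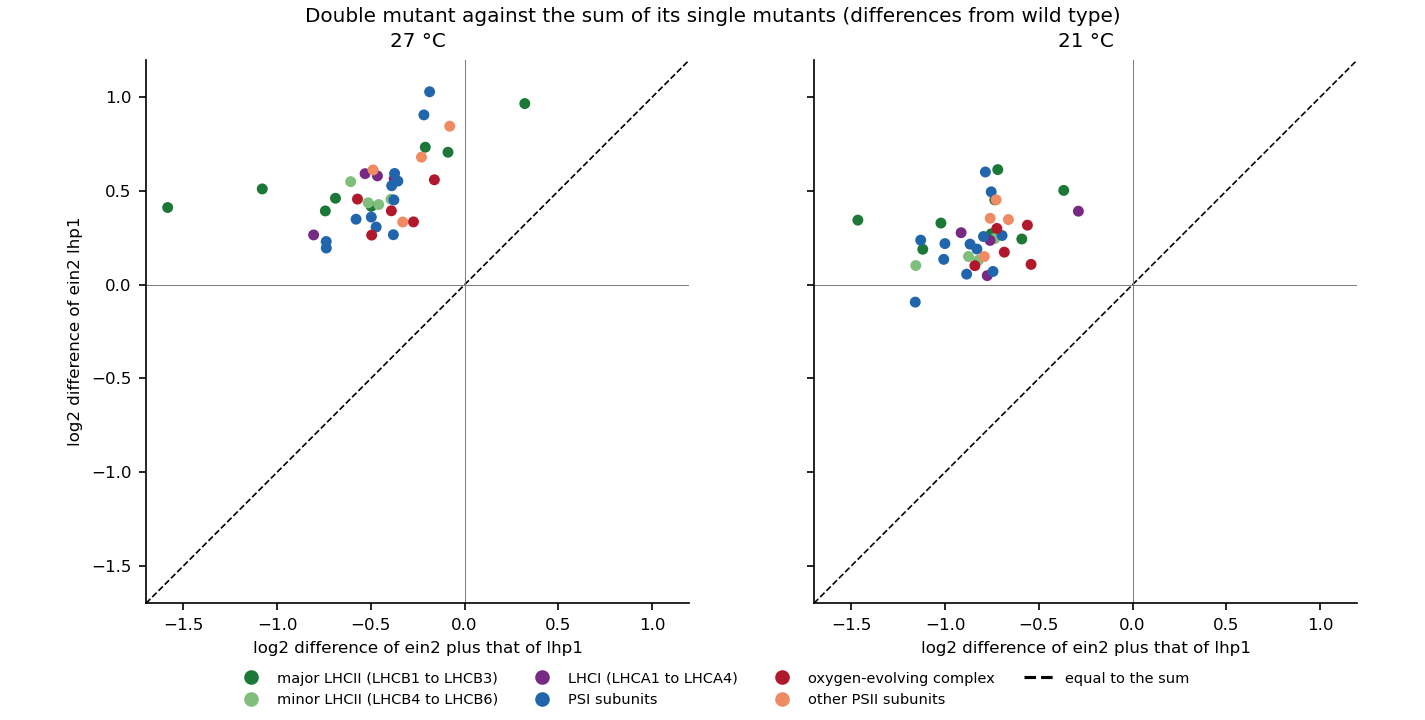
Log2 difference of ein2 lhp1 from wild type (vertical axis) against the sum of the ein2 and lhp1 differences (horizontal axis) for each of the 37 genes, at 27 °C (left) and 21 °C (right); the dashed line marks equality. All 37 genes lie above the line at both temperatures.

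After 4 h at 27 °C most members were higher than at 21 °C in ein2, lhp1 and ein2 lhp1. In ein3 eil1 and wild type they were split, and that split moved with the scaling. Warming here names the difference between 27 and 21 °C. Because the collection hour of the 21 °C seedlings is not given, temperature and hour of day cannot be told apart. Higher and lower members at 27 °C against 21 °C numbered 18 and 10 (median 0.06) in ein3 eil1, 29 and 5 (median 0.23) in lhp1, 33 and 3 (median 0.24) in ein2, 33 and 2 (median 0.31) in ein2 lhp1 and 18 and 12 (median 0.05) in wild type. The share of all genes called was 36.8% in ein3 eil1, 31.7% in lhp1, 27.1% in ein2, 29.0% in ein2 lhp1 and 39.2% in wild type, and the median of all genes was near 0 in each. With the length trend of the libraries removed the split was 24 higher and 5 lower in ein3 eil1. In wild type it was 29 higher and 2 lower. Of 21987 genes tested, 7765 in ein3 eil1 and 7427 in wild type were called with that trend removed. Library totals moved the median of all genes by 0.25 in ein3 eil1 and 0.16 in wild type. Under them the members' split was 30 higher and 3 lower in ein3 eil1 and 28 higher and 4 lower in wild type. All genes called under library totals numbered 10654 (8760 higher) in ein3 eil1 and 9886 (7218 higher) in wild type. With length and GC trends removed together the members' split was 29 higher and 3 lower in ein3 eil1 and 29 higher and 2 lower in wild type. All genes called then numbered 7721 in ein3 eil1 and 7426 in wild type. On warming the 11 root markers had 1 higher and 5 lower (median -0.31) in ein3 eil1, 1 higher and 1 lower (median -0.07) in lhp1, 0 higher and 4 lower (median -0.15) in ein2, 3 higher and 0 lower (median 0.14) in ein2 lhp1 and 5 higher and 0 lower (median 0.23) in wild type. The 3 green leaf markers had 0 higher and 2 lower (median -0.07) in ein3 eil1, 2 higher and 1 lower (median 0.13) in lhp1, 1 higher and 2 lower (median -0.08) in ein2, 2 higher and 1 lower (median 0.23) in ein2 lhp1 and 2 higher and 1 lower (median 0.11) in wild type. The 10 seed genes had 1 higher and 5 lower (median -1.76) in ein3 eil1, 0 higher and 10 lower (median -4.33) in lhp1, 0 higher and 6 lower (median -0.76) in ein2, 6 higher and 0 lower (median 1.15) in ein2 lhp1 and 0 higher and 0 lower (median -0.26) in wild type.

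Across genotypes, which share no library in this comparison, 15 members were called higher in all 5, against 2.33% of all genes. The 2 members called lower in all 5, against 3.24% of all genes, were LHCB1.1 and LHCB1.3. LHCB2.3 was also lower in all 5 but did not pass the test in ein2 lhp1. With the GC trend removed it was called lower in all 5 as well, which made 3 such members. Those called higher in all 5 numbered 26 under library totals and 23 with the length trend removed. The 2.33% belongs to TMM scaling, and the share of all genes under these other settings was not counted. LHCA1, LHCA3, LHCA4 and 4 of the 5 oxygen-evolving complex genes were among the 15. In wild type 4 of 5 oxygen-evolving complex genes were higher and PSBO1 was lower, 3 of 4 LHCA genes were higher, and the 12 photosystem I subunit genes divided into 5 higher, 5 lower and 2 that did not pass. These calls in wild type depended on the scaling. With TMM scaling the lower photosystem I genes were PSAE1, PSAG, PSAH1, PSAK and PSAO, whereas with the length trend removed none of these 5 was called lower and PSAE1 (0.16) and PSAK (0.20) were called higher. Under library totals only PSAG (-0.12) and PSAO (-0.17) of the 5 were called lower, and PSBO1 was called higher (0.080). In ein2 all 12 were higher with TMM scaling.

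**Figure D3:**
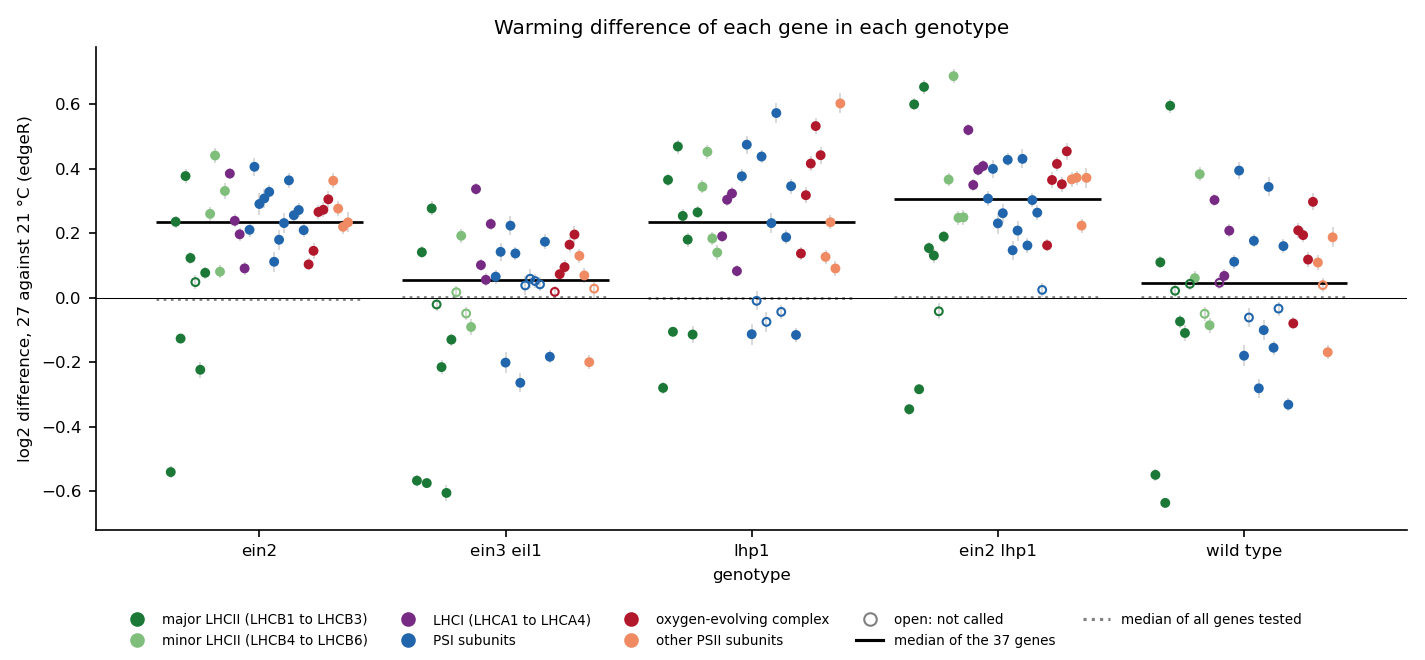
Log2 difference between 27 and 21 °C (vertical axis, edgeR fit) of each of the 37 genes in each genotype; filled points passed the test and open points did not, solid bars are medians of the 37 genes and dotted bars medians of all genes tested. The medians are 0.06 in ein3 eil1, 0.23 in lhp1, 0.24 in ein2, 0.31 in ein2 lhp1 and 0.05 in wild type.

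The LHCB1 genes had opposite warming responses, although the coding sequences of the 3 copies on chromosome 1 are 95.65% to 96.39% identical. LHCB1.3 fell by 0.64 on the log2 scale in wild type (SE 0.015, edgeR adjusted p = 7.4e-48), the largest fall among members, and LHCB1.4 had the largest rise (log2 difference 0.60, SE 0.022, edgeR adjusted p = 2.2e-36). LHCB1.1 had a warming difference of -0.57 in ein3 eil1, -0.28 in lhp1, -0.54 in ein2, -0.35 in ein2 lhp1 and -0.55 in wild type. LHCB1.3 had -0.57 in ein3 eil1, -0.11 in lhp1, -0.13 in ein2, -0.28 in ein2 lhp1 and -0.64 in wild type. Both copies thus fell on warming in all 5 genotypes. LHCB1.2, the neighbour of LHCB1.1, had 0.14 in ein3 eil1, 0.37 in lhp1, 0.24 in ein2, 0.60 in ein2 lhp1 and 0.11 in wild type. LHCB1.4 had 0.28 in ein3 eil1, 0.47 in lhp1, 0.38 in ein2, 0.65 in ein2 lhp1 and 0.60 in wild type. All 20 of these differences passed the test.

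At 27 °C LHCB1.2 (AT1G29910) had 6344 and 6409 CPM in ein2, 8163 and 8336 in ein3 eil1, 4264 and 4236 in lhp1, 9427 and 9190.3 in ein2 lhp1, and 5629 and 5568 in wild type. At 21 °C LHCB1.2 had 5389 and 5443 CPM in ein2, 7613 and 7348 in ein3 eil1, 3347 and 3251 in lhp1, 6225 and 6061 in ein2 lhp1, and 5249.6 and 5126 in wild type. In all 5 genotypes both warmed libraries of LHCB1.2 lay above both at 21 °C, and the order of genotypes differed between temperatures: ein2 lhp1 was highest at 27 °C and ein3 eil1 at 21 °C. The ratio of LHCB1.3 to LHCB1.2, which a library's size factor cannot move, was 2.45 and 2.49 in wild type at 27 °C, against 4.12 and 4.16 at 21 °C, and 2.91 and 2.89 in ein2 lhp1 at 27 °C, against 5.29 and 5.42 at 21 °C. The ratio of LHCB1.3 to LHCB1.4 was 3.27 and 3.29 in wild type at 27 °C, against 7.67 and 7.74 at 21 °C. In every genotype both ratios were lower at 27 °C with no overlap. LHCB1.3 made up 48.7 and 48.9% of LHCB1 counts in wild type at 27 °C and 59.1 and 59.2% at 21 °C. The summed counts of the 3 copies on chromosome 1, in which reads moving between them cancel, had a warming difference of -0.43 in ein3 eil1, -0.06 in lhp1, -0.14 in ein2, -0.15 in ein2 lhp1 and -0.48 in wild type. LHCB1.3 makes up most of that sum, so the sum does not test LHCB1.1 or LHCB1.2 alone.

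**Figure D4:**
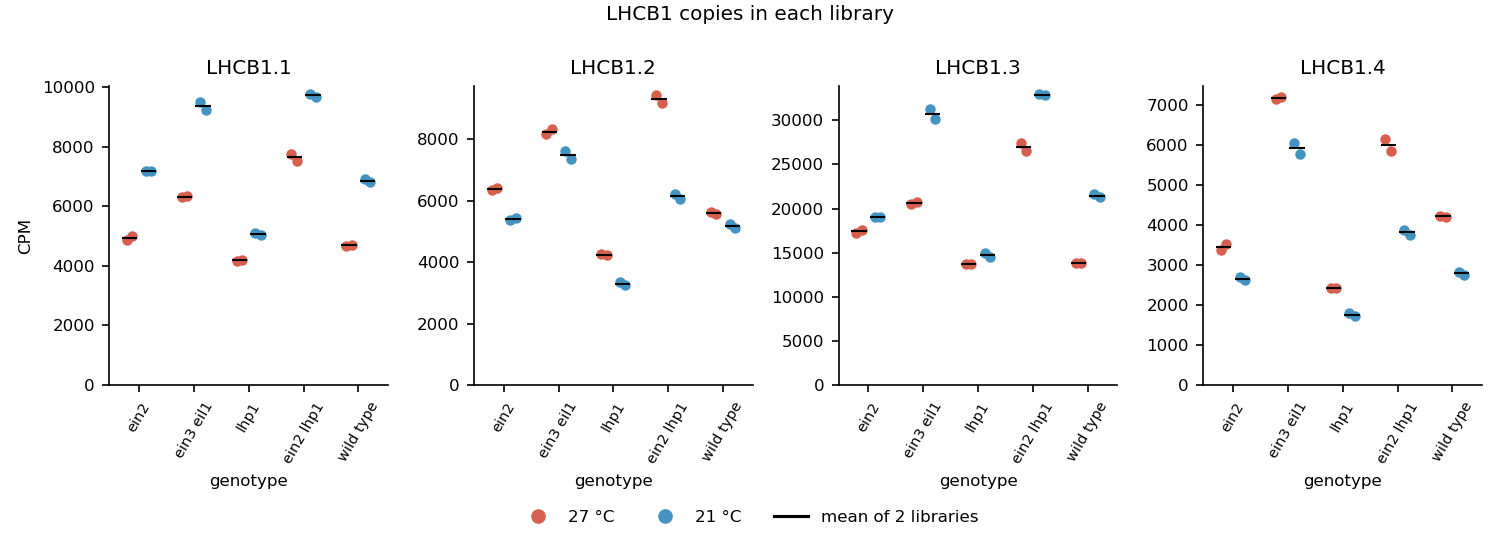
CPM of LHCB1.1 to LHCB1.4 in each library (points, 27 °C red and 21 °C blue) with the mean of 2 libraries (bars), by genotype. LHCB1.1 and LHCB1.3 are lower at 27 °C and LHCB1.2 and LHCB1.4 higher in every genotype.

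At 27 °C LHCB2.1 (AT2G05100) had 2855 and 2919.9 CPM in ein2, 4564 and 4593 in ein3 eil1, 2604 and 2597 in lhp1, 4869 and 4712 in ein2 lhp1, and 3491 and 3467 in wild type. At 21 °C LHCB2.1 had 2698 and 2604 CPM in ein2, 4699 and 4592 in ein3 eil1, 2206 and 2157 in lhp1, 4311 and 4299 in ein2 lhp1, and 3437 and 3418 in wild type. LHCB2.1 and LHCB2.2 lie on chromosome 2 and share stretches in which reads cannot be told apart. At 27 °C LHCB2.2 (AT2G05070) had 2359 and 2406 CPM in ein2, 3528 and 3559.9 in ein3 eil1, 1948 and 1948 in lhp1, 3750.4 and 3572 in ein2 lhp1, and 2796 and 2778 in wild type. At 21 °C LHCB2.2 had 2329 and 2278 CPM in ein2, 4145 and 4082 in ein3 eil1, 1764 and 1674 in lhp1, 3315 and 3372 in ein2 lhp1, and 2942 and 2924 in wild type. For both genes lhp1 was lowest and ein2 next at each temperature, and ein3 eil1 and ein2 lhp1 were highest. In wild type the warming difference was 0.02 for LHCB2.1, -0.07 for LHCB2.2 and -0.11 for LHCB2.3, of which LHCB2.1 did not pass the test. In ein3 eil1 LHCB2.3 had the largest fall of any member on warming (log2 difference -0.61, SE 0.025, edgeR adjusted p = 5.1e-33).

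Gene pairs for 1 subunit did not keep a fixed balance. For PSAE the ratio of PSAE1 to PSAE2 was 1.63 and 1.75 in ein3 eil1 and 1.49 and 1.48 in ein2 lhp1, against 0.979 and 1.000 in wild type at 21 °C. At 27 °C PSAE1 (AT4G28750) had 554 and 525 CPM in ein2, 1003 and 987 in ein3 eil1, 437 and 452 in lhp1, 1016 and 963 in ein2 lhp1, and 543 and 512 in wild type. At 21 °C PSAE1 had 422 and 460.3 CPM in ein2, 1117 and 1170.0 in ein3 eil1, 467 and 494 in lhp1, 866 and 820.2 in ein2 lhp1, and 597 and 599 in wild type. At 21 °C PSAE1 was higher in ein3 eil1 by 0.94 on the log2 scale and PSAE2 by 0.16 (SE 0.029, edgeR adjusted p = 4.7e-06), where PSAE2 was the least raised member and differed by -0.0023 under library totals, a scaling that moved the median of all genes by -0.17. The difference between copies was not tested.

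At 27 °C PSAD1 (AT4G02770) had 2296 and 2253 CPM in ein2, 3059 and 3055 in ein3 eil1, 1781 and 1756 in lhp1, 2798 and 2706 in ein2 lhp1, and 2294 and 2282 in wild type. At 21 °C PSAD1 had 1911 and 2019.8 CPM in ein2, 2904 and 2940.0 in ein3 eil1, 1356 and 1367 in lhp1, 2241 and 2206 in ein2 lhp1, and 2117 and 2118 in wild type. PSAD, like PSAE, lies on the stromal face of photosystem I. At 27 °C PSAD2 (AT1G03130) had 1008 and 975 CPM in ein2, 1579.8 and 1561 in ein3 eil1, 768 and 771 in lhp1, 1320.3 and 1264 in ein2 lhp1, and 1132 and 1125 in wild type. At 21 °C PSAD2 had 723 and 774 CPM in ein2, 1385 and 1459.7 in ein3 eil1, 549 and 559 in lhp1, 984 and 974 in ein2 lhp1, and 864 and 853 in wild type. For both copies lhp1 libraries were the lowest and ein3 eil1 libraries the highest at each temperature. The ratio of PSAD1 to PSAD2 was 2.03 and 2.03 in wild type at 27 °C and 2.45 and 2.48 at 21 °C, and it was lower at 27 °C in all 5 genotypes.

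At 27 °C PSAH1 (AT3G16140) had 471 and 454 CPM in ein2, 693 and 687 in ein3 eil1, 384 and 392 in lhp1, 718 and 680.0 in ein2 lhp1, and 485 and 485 in wild type. At 21 °C PSAH1 had 398 and 419 CPM in ein2, 667 and 677 in ein3 eil1, 328 and 333 in lhp1, 624 and 586 in ein2 lhp1, and 518 and 521 in wild type. PSAH takes part in binding the mobile antenna to photosystem I. At 27 °C PSAH2 (AT1G52230) had 644 and 636 CPM in ein2, 907 and 903 in ein3 eil1, 481 and 519.7 in lhp1, 896 and 866 in ein2 lhp1, and 694 and 689 in wild type. At 21 °C PSAH2 had 534 and 557 CPM in ein2, 866 and 871 in ein3 eil1, 344 and 328 in lhp1, 658 and 649.6 in ein2 lhp1, and 541 and 549 in wild type. In wild type both warmed libraries lay below those at 21 °C for PSAH1 and above them for PSAH2, in TMM-scaled CPM. The log2 warming difference of PSAH1 in wild type was -0.10 with TMM. It was 0.059 under library totals and 0.0094 with the length trend removed, neither of them called. The ratio of PSAH1 to PSAH2 was 0.698 and 0.704 in wild type at 27 °C and 0.957 and 0.950 at 21 °C. In lhp1 it was 0.798 and 0.755 at 27 °C and 0.955 and 1.01 at 21 °C, whereas in ein3 eil1 it was 0.764 and 0.761 at 27 °C and 0.770 and 0.778 at 21 °C.

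At 27 °C PSBO1 (AT5G66570) had 4346 and 4404 CPM in ein2, 6418 and 6393 in ein3 eil1, 3959 and 3919.9 in lhp1, 6609.8 and 6333 in ein2 lhp1, and 4413 and 4367 in wild type. At 21 °C PSBO1 had 4111 and 4034 CPM in ein2, 6341 and 6309 in ein3 eil1, 3543 and 3622 in lhp1, 5732 and 5832 in ein2 lhp1, and 4605 and 4673 in wild type. PSBO stabilises the manganese cluster that splits water. At 27 °C PSBO2 (AT3G50820) had 1191 and 1180.3 CPM in ein2, 1569.7 and 1578 in ein3 eil1, 869.8 and 887 in lhp1, 1466 and 1446 in ein2 lhp1, and 1220.1 and 1203 in wild type. At 21 °C PSBO2 had 1055 and 1089 CPM in ein2, 1483 and 1508 in ein3 eil1, 705 and 704 in lhp1, 1139.5 and 1121 in ein2 lhp1, and 1050.2 and 1047 in wild type. In wild type both warmed libraries lay below those at 21 °C for PSBO1 and above them for PSBO2, in TMM-scaled CPM. The ratio of PSBO1 to PSBO2 was 3.65 and 3.73 in ein2 and 4.55 and 4.42 in lhp1, against 3.62 and 3.63 in wild type at 27 °C. At 21 °C it was 3.90 and 3.70 in ein2 and 5.03 and 5.14 in lhp1, against 4.38 and 4.46 in wild type.

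At 27 °C PSBQ1 (AT4G21280) had 1586 and 1581 CPM in ein2, 1778 and 1798 in ein3 eil1, 1234 and 1249.8 in lhp1, 1982 and 1907 in ein2 lhp1, and 1544 and 1539 in wild type. At 21 °C PSBQ1 had 1289 and 1333 CPM in ein2, 1607 and 1583 in ein3 eil1, 858 and 859 in lhp1, 1539 and 1508 in ein2 lhp1, and 1443 and 1397 in wild type. PSBQ is another extrinsic subunit of the oxygen-evolving complex. At 27 °C PSBQ2 (AT4G05180) had 1139 and 1075 CPM in ein2, 1832 and 1854 in ein3 eil1, 908 and 915 in lhp1, 1715 and 1646 in ein2 lhp1, and 1242 and 1207 in wild type. At 21 °C PSBQ2 had 875 and 917 CPM in ein2, 1602 and 1616 in ein3 eil1, 674 and 668 in lhp1, 1246 and 1208 in ein2 lhp1, and 1011 and 982 in wild type. The lhp1 libraries were the lowest for both copies. The ratio of PSBQ1 to PSBQ2 was lowest in ein3 eil1, at 0.971 and 0.969 at 27 °C and 1.004 and 0.980 at 21 °C, against 1.24 and 1.28 at 27 °C and 1.43 and 1.42 at 21 °C in wild type. PSBQ1 was the least raised member in ein3 eil1 at 27 °C (log2 difference 0.21, SE 0.024, edgeR adjusted p = 3.9e-12).

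At 27 °C LHCB4.1 (AT5G01530) had 3627 and 3694 CPM in ein2, 5051 and 5146 in ein3 eil1, 3156 and 3232 in lhp1, 5443 and 5305 in ein2 lhp1, and 3926 and 3909.6 in wild type. At 21 °C LHCB4.1 had 3087 and 3027 CPM in ein2, 5136 and 4941 in ein3 eil1, 2581 and 2451 in lhp1, 4212 and 4126 in ein2 lhp1, and 3768 and 3744 in wild type. LHCB4 is the minor antenna protein beside the photosystem II core. At 27 °C LHCB4.2 (AT3G08940) had 1869 and 1855 CPM in ein2, 3341 and 3321 in ein3 eil1, 1839.8 and 1883 in lhp1, 3416 and 3313 in ein2 lhp1, and 2314 and 2283 in wild type. At 21 °C LHCB4.2 had 1342 and 1401 CPM in ein2, 2938 and 2894 in ein3 eil1, 1374 and 1346 in lhp1, 2117 and 2062 in ein2 lhp1, and 1786 and 1738 in wild type. The ein3 eil1 and ein2 lhp1 libraries were the highest for both copies. The ratio of LHCB4.1 to LHCB4.2 was 1.51 and 1.55 in ein3 eil1, against 1.70 and 1.71 in wild type at 27 °C, and it was lower at 27 °C than at 21 °C in all 5 genotypes.

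The other 15 measured members are given by their lowest and highest library. Among the antenna genes, LHCB3 (AT5G54270) ranged between 2952 CPM in lhp1 at 21 °C and 6627 CPM in ein3 eil1 at 21 °C, LHCB5 (AT4G10340) ranged between 3077 CPM in lhp1 at 21 °C and 6158 CPM in ein3 eil1 at 21 °C and LHCB6 (AT1G15820) ranged between 2007 CPM in lhp1 at 21 °C and 4280.1 CPM in ein3 eil1 at 21 °C. LHCB3 is the third protein of the major antenna trimers, and LHCB5 and LHCB6 belong to the minor antenna. For photosystem I, LHCA1 (AT3G54890) ranged between 3745 CPM in ein2 at 21 °C and 8549 CPM in ein3 eil1 at 27 °C, LHCA2 (AT3G61470) ranged between 2329 CPM in lhp1 at 21 °C and 5647 CPM in ein3 eil1 at 27 °C and LHCA3 (AT1G61520) ranged between 2352 CPM in lhp1 at 21 °C and 5684 CPM in ein3 eil1 at 27 °C. LHCA2 and LHCA3 pair with each other in the antenna belt. Of the core subunits, PSAF (AT1G31330) ranged between 2031 CPM in lhp1 at 21 °C and 5194 CPM in ein3 eil1 at 27 °C and PSAN (AT5G64040) ranged between 950.0 CPM in lhp1 at 21 °C and 2236 CPM in ein3 eil1 at 27 °C, both on the side where plastocyanin docks.

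PSAK (AT1G30380) ranged between 1339 CPM in ein2 at 21 °C and 2846 CPM in ein3 eil1 at 27 °C. PSAK, like PSAG, flanks the antenna. PSAL (AT4G12800) ranged between 2170.1 CPM in lhp1 at 21 °C and 4841 CPM in ein3 eil1 at 27 °C. PSAL lies beside the docking site of the mobile antenna. For photosystem II, PSBP1 (AT1G06680) ranged between 1950.1 CPM in lhp1 at 21 °C and 4441 CPM in ein2 lhp1 at 27 °C and PSBR (AT1G79040) ranged between 1971 CPM in ein2 at 21 °C and 5014 CPM in ein3 eil1 at 27 °C. PSBP is an extrinsic subunit needed for water splitting, and PSBR helps it to bind. Of the small membrane subunits, PSBW (AT2G30570) ranged between 1304 CPM in lhp1 at 21 °C and 2910.3 CPM in ein2 lhp1 at 27 °C, PSBX (AT2G06520) ranged between 1685 CPM in lhp1 at 21 °C and 3688 CPM in ein2 lhp1 at 27 °C and PSBY (AT1G67740) ranged between 780.3 CPM in lhp1 at 21 °C and 1997 CPM in ein3 eil1 at 27 °C. In all 15 the lowest library came from lhp1 or ein2 and the highest from ein3 eil1 or ein2 lhp1.

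Differences of warming response between each mutant and wild type were tested directly. Responses that differed from that of wild type numbered 5 higher and 10 lower in ein3 eil1, 28 higher and 3 lower in lhp1, 25 higher and 4 lower in ein2 and 33 higher and 0 lower in ein2 lhp1, with medians of -0.01 in ein3 eil1, 0.22 in lhp1, 0.13 in ein2 and 0.25 in ein2 lhp1. The share of all genes called was 9.46% in ein3 eil1, 20.6% in lhp1, 24.1% in ein2 and 16.9% in ein2 lhp1. These splits depended on the scaling. With the length trend removed they were 2 higher and 19 lower in ein3 eil1, 19 higher and 7 lower in lhp1, 9 higher and 17 lower in ein2 and 17 higher and 3 lower in ein2 lhp1. The genes called among all 21987 then numbered 1706 in ein3 eil1, 3924 in lhp1, 3500 in ein2 and 2170 in ein2 lhp1. Under library totals the splits of the members were 14 higher and 6 lower in ein3 eil1, 21 higher and 5 lower in lhp1, 15 higher and 6 lower in ein2 and 14 higher and 6 lower in ein2 lhp1. All genes called under library totals numbered 2508 in ein3 eil1, 5236 in lhp1, 5978 in ein2 and 5911 in ein2 lhp1. With length and GC trends removed together the splits of the members were 3 higher and 15 lower in ein3 eil1, 14 higher and 10 lower in lhp1, 9 higher and 19 lower in ein2 and 9 higher and 5 lower in ein2 lhp1, and with GC trends alone removed 10 higher and 7 lower in ein3 eil1. All genes called with both trends removed numbered 1690 in ein3 eil1, 3851 in lhp1, 3498 in ein2 and 2091 in ein2 lhp1. With GC trends alone removed 2053 of all genes were called in ein3 eil1. Responses of the 11 root markers that differed numbered 0 higher and 5 lower (median -0.47) in ein3 eil1, 0 higher and 5 lower (median -0.30) in lhp1, 0 higher and 5 lower (median -0.31) in ein2 and 1 higher and 1 lower (median -0.01) in ein2 lhp1. Those of the 3 green leaf markers numbered 0 higher and 2 lower (median -0.18) in ein3 eil1, 2 higher and 1 lower (median 0.14) in lhp1, 1 higher and 2 lower (median -0.09) in ein2 and 2 higher and 0 lower (median 0.12) in ein2 lhp1, and those of the 10 seed genes 0 higher and 2 lower (median -1.29) in ein3 eil1, 0 higher and 7 lower (median -3.64) in lhp1, 0 higher and 2 lower (median -0.41) in ein2 and 3 higher and 0 lower (median 1.37) in ein2 lhp1.

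The members at the ends of these comparisons were the following. PSAO, a subunit of photosystem I that helps to bind the mobile antenna, had the highest response difference in ein2 (log2 difference 0.54, SE 0.030, edgeR adjusted p = 4.9e-25). At 27 °C PSAO (AT1G08380) had 2262 and 2333 CPM in ein2, 4129.5 and 4123 in ein3 eil1, 1871 and 1851 in lhp1, 3644 and 3458 in ein2 lhp1, and 2359 and 2347 in wild type. At 21 °C PSAO had 2007 and 1967 CPM in ein2, 4741 and 4628 in ein3 eil1, 2014 and 2018 in lhp1, 3509 and 3473 in ein2 lhp1, and 2959.6 and 2962 in wild type. In ein2 both warmed PSAO libraries lay above those at 21 °C, and in wild type both lay below. The fall of PSAO in wild type depended on the scaling. It was -0.33 with TMM, -0.17 under library totals and -0.0072, not called, with the length trend removed. LHCB1.4 had the lowest response difference in ein2 (log2 difference -0.22, SE 0.030, edgeR adjusted p = 2e-08) and in lhp1 (log2 difference -0.13, SE 0.031, edgeR adjusted p = 0.00105). LHCB1.3 had the highest in lhp1 (log2 difference 0.53, SE 0.021, edgeR adjusted p = 2.7e-32). In ein3 eil1 PSAE2 had the highest (log2 difference 0.28, SE 0.041, edgeR adjusted p = 2.2e-07) and LHCB2.3 the lowest (log2 difference -0.50, SE 0.036, edgeR adjusted p = 1.8e-18). In ein2 lhp1 LHCB1.2 had the highest (log2 difference 0.49, SE 0.026, edgeR adjusted p = 4.9e-25) and PSAD2 the lowest (log2 difference 0.01, SE 0.039, edgeR adjusted p = 0.954).

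Other genes of photosynthesis were counted against wild type at 21 °C, where the share of all genes called in either direction was 31.5% in ein3 eil1, 28.3% in lhp1, 35.9% in ein2 and 33.8% in ein2 lhp1. Of 10 nuclear genes for electron transport and ATP synthase, 8 were higher and 1 lower in ein3 eil1, 0 higher and 10 lower in lhp1, 3 higher and 5 lower in ein2 and 5 higher and 2 lower in ein2 lhp1, with medians of 0.27, -0.53, -0.07 and 0.09 in that order. Of 17 chlorophyll synthesis genes, 5 were higher and 10 lower in ein3 eil1, 0 higher and 14 lower in lhp1, 6 higher and 2 lower in ein2 and 5 higher and 9 lower in ein2 lhp1, with medians of -0.11, -0.39, 0.05 and -0.11. Of 10 related genes outside the members, among them LHCA5, LHCB7, PSB27, PSB28 and CURT1B, 4 were higher and 2 lower in ein3 eil1, 1 higher and 8 lower in lhp1, 0 higher and 8 lower in ein2 and 4 higher and 4 lower in ein2 lhp1. Of 7 genes for antenna insertion and regulation, 4 were higher and 2 lower in ein3 eil1, 0 higher and 4 lower in lhp1, 1 higher and 2 lower in ein2 and 2 higher and 3 lower in ein2 lhp1. Of 4 chlorophyll breakdown genes, 0 were higher and 2 lower in ein3 eil1, 0 higher and 1 lower in lhp1, 0 higher and 2 lower in ein2 and 0 higher and 3 lower in ein2 lhp1. Of 9 regulators, 3 were higher and 4 lower in ein3 eil1, 2 higher and 2 lower in lhp1, 3 higher and 2 lower in ein2 and 3 higher and 4 lower in ein2 lhp1. Among these regulators GLK1, an activator of LHCB genes, differed from wild type by 0.68 in ein3 eil1, -0.37 in lhp1, 0.58 in ein2 and 0.63 in ein2 lhp1 on the log2 scale. In ein2 GLK1 was higher while most members were lower. GLK1 is 1 of the 9 regulators counted, which went in both directions in every mutant, and the others are not given singly. The part of any of the 9 in the members' levels was not tested. On warming in wild type the electron transport genes had 7 higher and 3 lower, the chlorophyll synthesis genes 6 higher and 4 lower, the related genes outside the members 3 higher and 6 lower and the regulators 5 higher and 0 lower, where 39.2% of all genes were called.

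The genes outside the list whose levels followed the members most closely over the 10 group means were PSB27, which acts in assembly and repair of photosystem II (Pearson r = 0.980 with the members' mean, a description over 10 group means), TRX-M4, a chloroplast thioredoxin (0.976), PDE334 (0.969), the thylakoid curvature gene CURT1B, listed as PSI-P (0.969), and AT2G20410 (0.968). PSB27 and CURT1B are also among the related genes counted above.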

How the data were processed

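RNA-seq libraries of polyadenylated RNA from 20 seedling samples, 2 in each of 10 groups, were sequenced by the study. The deposited gene counts came from featureCounts 2.0.3 with the Araport11 annotation, per the file headers, and the submitters' processing notes name FastQC, Trim Galore, STAR, Subread 2.0.1, DESeq2 and the build TAIR10. Mates were counted singly (78.2% to 83.6% of gene counts from 5 to 50 are even), without strand, and reads that map to several places or over several genes were not counted, per the file headers. The deposited tables of warming differences give the authors' log2 fold changes and p-values. Column names in the counts read 22 and 28, where the labels give 21 and 27 °C. The cooler-named column was taken as the cooler label of the same genotype and replicate, and the log2 ratios made from the counts then followed the deposited ones with r between 0.9995 and 0.9998 over genes.

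All 20 libraries were fitted with edgeR 4.0.16 (R 4.3.3, quasi-likelihood, TMM, a filter on low counts by group, 21987 genes kept), with 1 mean for each group and Benjamini-Hochberg adjustment over all genes, called at adjusted p under 0.05. CPM values are TMM-scaled. Members and gene lists were chosen with earlier results of these data known. Single genes named are the highest and lowest member of each comparison, the LHCB1 and LHCB2 loci, and the gene pairs; the genes most alike are the 5 with the highest correlation. Alternatives were library totals, DESeq2 1.42.0, no filter, ribosomal RNA region genes (4.04% to 12.7% of counts) or members left out of the scaling, length and GC trends removed, a replicate block, the groups compared alone, each library left out, and summed copies. Start and end of all 38 members are the same in the deposited files and in the RefSeq annotation of TAIR10.1, from which promoters were taken.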

Additional observations from a re-analysis of the deposited data

Results flagged for a closer look

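The warming response differed from that of wild type, by a test of the difference itself, for the following numbers of members, 15 in ein3 eil1, 31 in lhp1, 29 in ein2 and 33 in ein2 lhp1. The share of all genes called was 9.46% in ein3 eil1, 20.6% in lhp1, 24.1% in ein2 and 16.9% in ein2 lhp1. The effect of the ein2 mutation differed between the lhp1 and the wild-type background for 37 members at 27 °C, against 13.0% of all genes called higher, and for 37 at 21 °C, against 14.2%, tested as the distance of ein2 lhp1 from the sum of ein2 and lhp1.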

How the results depend on the processing

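Counted in both directions together, the members called moved by more than 1.5 times under another setting in 1 comparison: the 33 members whose warming response in ein2 lhp1 differed from wild type became 20 under library totals, 20 with the length trend removed and 14 with length and GC trends removed. Of all 21987 genes tested, 3709 were called in that comparison with TMM and 5911 under library totals. With the length trend removed 2170 were called, and with length and GC trends removed 2091. The split of the members into higher and lower moved further: warming in wild type had 18 higher and 12 lower (median 0.05) with TMM and 29 higher and 2 lower (median 0.21) with the length trend removed, the response in ein2 had 25 higher and 4 lower with TMM and 9 higher and 17 lower with the length trend removed, and the response in ein3 eil1 had 5 higher and 10 lower with TMM and 14 higher and 6 lower under library totals. The GC settings, the summed copies and the comparison of ein2 lhp1 with the sum were chosen after seeing the data. Leaving out each library in turn moved the members called to 27 to 30 for warming in wild type, 25 to 27 for warming in ein3 eil1, 22 to 26 for ein2 at 27 °C and 12 to 14 for the response in ein3 eil1, and moved no such total by 1.5 times. Same-numbered libraries did not deviate together (45 pairs, r between -0.0673 and 0.0346), so the numbers were not read as pairs. The replicate block lost 0 member calls and gained 5 over all comparisons, with 33 called for warming in wild type, 29 for warming in ein3 eil1 and 16 for the response in ein3 eil1. Library totals moved the median of all genes by -0.17 for ein3 eil1 at 21 °C, and for the response differences by -0.12 in lhp1, -0.11 in ein2 and -0.22 in ein2 lhp1.

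The share of counts in members, with ribosomal RNA region genes left out of the total, was 17.6% in ein3 eil1, 10.6% in lhp1, 11.996% in ein2, 16.1% in ein2 lhp1 and 12.9% in wild type at 27 °C, and 16.97% in ein3 eil1, 9.70% in lhp1, 10.7% in ein2, 14.4% in ein2 lhp1 and 12.5% in wild type at 21 °C. With totals scaled by TMM it was 15.9% in ein3 eil1, 8.93% in lhp1, 10.8% in ein2, 16.4% in ein2 lhp1 and 11.1% in wild type at 27 °C, and 16.7% in ein3 eil1, 7.999% in lhp1, 9.93% in ein2 and 14.5% in ein2 lhp1 at 21 °C.

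Single log2 differences that changed sign are given here, and the cause was not tested. LHCB1.1 in ein2 against wild type was -0.0042 at 21 °C without the GC trend, and at 27 °C -0.0033 under library totals and -0.059 without length and GC trends. PSAD2 in ein2 lhp1 at 27 °C was -0.18 under library totals, -0.088 without the length trend, -0.088 with the replicate block added, and -0.12 without length and GC trends. PSAE2 in ein3 eil1 at 21 °C was -0.0023 under library totals. For the response in ein2, LHCB1.2 was -0.047 without the length trend, with or without the replicate block, and -0.069 without length and GC trends. LHCB1.1 was -0.098 under library totals, -0.13 without the length trend, with or without the block, and -0.13 without both trends. For the response in ein2 lhp1, PSAD2 was -0.21, -0.22 (with or without the block) and -0.25 under the same 3 settings. LHCB1.1 was -0.013 under library totals and -0.012 without both trends, and LHCB1.4 was -0.16 under library totals, -0.090 without the GC trend and -0.20 without both. The sum of the 3 copies on chromosome 1, which is mostly LHCB1.3, differed by -0.083 in ein2 at 21 °C, and its warming difference was -0.43 in ein3 eil1, -0.063 in lhp1, -0.14 in ein2, -0.15 in ein2 lhp1 and -0.48 in wild type. The sign of that sum is no test of LHCB1.1 or LHCB1.2 alone. Counts of the members are high, so depth did not limit them, but 2 libraries a group limit every estimate of spread.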

Other observations

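GLK1 differed from wild type at 27 °C by 0.44 in ein3 eil1, -0.61 in lhp1, 0.20 in ein2 and 0.46 in ein2 lhp1 on the log2 scale, each past the edgeR threshold. The distance of ein2 lhp1 from the sum of ein2 and lhp1 for GLK1 was 0.86 at 27 °C and 0.42 at 21 °C. GLK1 is among the regulators counted above, the others are not given singly, and its part in the members' levels was not tested. Beyond that sum at 21 °C, all 10 electron transport and ATP synthase genes were higher (median 0.69), as were 10 of 17 chlorophyll synthesis genes with 0 lower (median 0.17) and 8 of 10 related genes outside the members with 0 lower (median 0.66), against 14.2% of all genes called higher. Of 7 antenna insertion and regulation genes, 4 were higher and 2 lower (median 0.24). Of 4 chlorophyll breakdown genes, 0 were higher and 1 lower (median -0.18). At 27 °C the 17 chlorophyll synthesis genes had 7 higher and 4 lower (median 0.10), against 13.0% of all genes called higher.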
